A study of Drosophila melanogaster with 3 samples.

Results

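Intronic binding sites of the Drosophila protein CG13296 that lie beside promoters, but not in them, were examined in whole embryos. Their peaks have a summit, the position of highest enrichment, inside a gene body and in no annotated exon, more than 500 bp and at most 5000 bp from the nearest transcription start site (TSS) of any gene. Of the 5724 peaks that passed the authors' irreproducible discovery rate (IDR) threshold, 1464 met this rule and are called members here. The other peaks were 2996 within 500 bp of a TSS, 540 in introns farther than 5000 bp from any TSS, 554 between genes and 170 in exons.

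The annotation gives CG13296 the name Prdm13, a zinc-finger protein of the PR domain family, whose vertebrate member PRDM13 is known for its part in choosing neuron types in the dorsal neural tube. Introns near a promoter, the first intron above all, are a common place for enhancers, the stretches of DNA that transcription factors bind to set when and where a gene is transcribed. Chromatin immunoprecipitation with sequencing (ChIP-seq) recovers the DNA that a protein touches, and a peak marks a place where more of it was recovered.

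The chromatin came from mixed-sex whole embryos aged 6 to 18 hours of 1 transgenic line that carries CG13296 with green fluorescent protein (GFP) at its C-terminus, and was sonicated to 200 to 800 bp. There were 3 biological replicates in 1 group, recorded as separate biosamples, and no untagged or mutant group. The sample descriptions call these libraries input, whereas the antibody tag, the assay title and the deposited derivation records treat them as the immunoprecipitated side, against 1 shared control file that was not analysed here. Values below are for the libraries so labelled. The hours given here are those of the source name, since those in the age tag cannot be right. In whole embryos, binding in fewer nuclei and weaker binding in each nucleus cannot be told apart.

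The sequences of some members are shown first, 50 bp on each side of the summit, on the plus strand of build dm6, read from the RefSeq release 6 genome. The first set holds members of high signal that were supported in all 3 replicates, named by the gene whose intron holds them. Capitals mark the forkhead site TGTTTAC, the TATA box TATAAA, the homeodomain site TAATTA and the Mef2 site, on either strand. The sequences in Tlk and in the pair Hyls1 and chif hold none of these sites.
CG11050, chr2L:6612652-6612752: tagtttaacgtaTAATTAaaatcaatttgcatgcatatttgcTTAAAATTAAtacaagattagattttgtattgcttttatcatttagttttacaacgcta
ush, chr2L:481006-481106: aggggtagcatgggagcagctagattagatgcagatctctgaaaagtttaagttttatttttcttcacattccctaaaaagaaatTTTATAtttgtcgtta
Trl, chr3L:14759472-14759572: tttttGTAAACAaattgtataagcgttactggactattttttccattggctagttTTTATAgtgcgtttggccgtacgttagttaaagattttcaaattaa
CG32772, chrX:4910327-4910427: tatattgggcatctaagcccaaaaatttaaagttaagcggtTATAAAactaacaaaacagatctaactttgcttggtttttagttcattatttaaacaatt
Lk6, chr3R:11761021-11761121: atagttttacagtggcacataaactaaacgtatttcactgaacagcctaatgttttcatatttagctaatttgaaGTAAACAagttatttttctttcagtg
Tlk, chrX:3742151-3742251: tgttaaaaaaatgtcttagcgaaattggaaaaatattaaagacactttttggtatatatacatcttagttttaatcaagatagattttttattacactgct
CG9663, chr2L:3302117-3302217: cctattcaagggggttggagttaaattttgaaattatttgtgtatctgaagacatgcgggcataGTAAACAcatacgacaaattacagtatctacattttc
Hyls1/chif, chr2L:16351201-16351301: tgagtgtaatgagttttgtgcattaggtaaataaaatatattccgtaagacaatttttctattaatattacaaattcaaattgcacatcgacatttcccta
CG9837, chr3R:8811631-8811731: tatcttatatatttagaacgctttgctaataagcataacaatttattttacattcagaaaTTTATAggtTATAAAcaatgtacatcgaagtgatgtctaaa
CHES-1-like, chrX:7706944-7707044: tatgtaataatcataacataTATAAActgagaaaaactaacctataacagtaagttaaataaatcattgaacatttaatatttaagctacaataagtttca
The next pair are further members of high signal with a forkhead site, in capitals.
SCaMC, chr3L:12407098-12407198: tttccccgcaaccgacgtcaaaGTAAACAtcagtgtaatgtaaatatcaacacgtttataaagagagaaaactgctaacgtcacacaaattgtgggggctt
Csk, chr3R:11649610-11649710: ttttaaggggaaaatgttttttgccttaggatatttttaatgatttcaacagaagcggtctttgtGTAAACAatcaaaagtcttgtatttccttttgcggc
The last set holds the 6-base word ACACTG, in capitals on either strand, which was more frequent at members than beside them.
Ctps/lncRNA:CR43973, chr3L:15098937-15099037: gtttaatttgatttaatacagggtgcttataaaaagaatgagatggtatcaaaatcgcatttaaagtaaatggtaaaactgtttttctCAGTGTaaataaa
Tob, chrX:16090340-16090440: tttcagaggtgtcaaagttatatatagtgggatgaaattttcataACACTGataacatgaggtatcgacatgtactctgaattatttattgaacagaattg
A match to these letters is a description of the sequence and was not tested for binding.

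Summits were denser in bases that meet the rule than over the 6 chromosome arms as a whole, and members thinned with distance from the TSS. They made up 25.6% of IDR summits (95% exact interval 24.5 to 26.7), whereas bases that meet the same rule make up 18.3% of the 6 chromosome arms, a ratio of 1.39 (exact binomial test, two-sided, p = 8.5e-42). Each replicate's top list, its 5724 strongest peaks, gave 25.8%, 24.5% and 25.5% in replicates 1, 2 and 3, a mean of 25.3% ± 0.68 (SD, n = 3). All replicates were above the share of bases. The rule selects on this same position and distance, so the comparison describes where the peaks lay. Bases where no peak could be called were not taken out. Per Mb of bases in each class there were 59.6 members, against 165 peaks within 500 bp of a TSS, 19.1 deep intronic peaks and 15.2 intergenic peaks.

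The density fell in steps over the whole range. It was 98.0 members per Mb at 500 to 750 bp, 76.4 at 1000 to 1500 bp, 46.8 at 2000 to 3000 bp and 36.6 at 4000 to 5000 bp. The replicates' top lists gave 100.2 ± 3.83 per Mb in the nearest bin and 35.8 ± 0.92 in the farthest (SD, n = 3), and the lowest replicate of the nearest bin was above the highest replicate of the farthest. Members 500 to 2000 bp from the TSS numbered 910, 62.2% (59.6 to 64.7) against 46.6% of eligible bases, those that meet the position rule (ratio 1.34, exact binomial p = 5.43e-33), and the replicates gave 62.3% ± 0.88 (SD, n = 3). The median distance was 1547 bp, with quartiles at 933 and 2711 bp. At the edges of the rule, the nearest members lay 502 bp (in CG42671, rank 1063) and 503 bp (in Pdp1, rank 5643) from a TSS. The farthest lay at 4989 bp, in Eip75B (rank 2029) and Nuak (rank 3488). The Pdp1 member matched a peak in the top list of only 1 replicate, whereas the CG42671, Eip75B and Nuak members did so in all 3. The intronic summits just outside lay at 497 bp in bip1 (rank 3985), at 499 bp in HmgD (rank 2120), at 5020 bp in Tis11 (rank 1820) and at 5024 bp in an intron shared by CG46429 and Sesn (rank 2701). The ranks of these peaks ran from 1063 to 5643 of 5724.

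**Figure D1:**
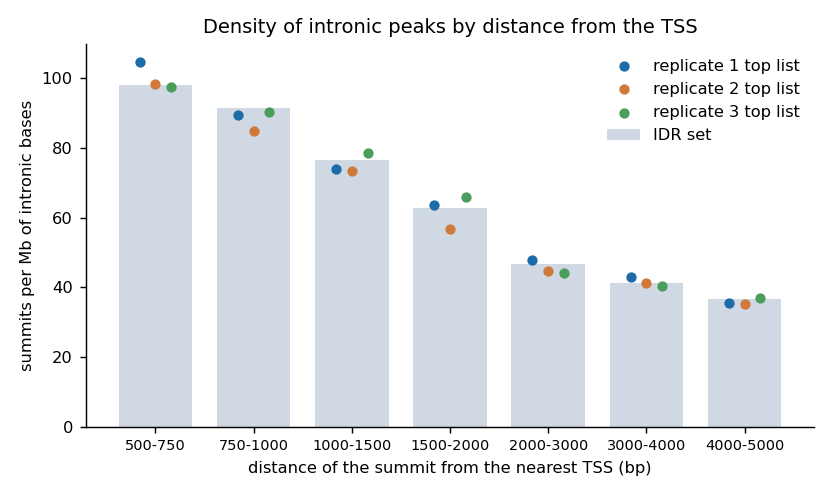
Summits per Mb of intronic bases (vertical axis) in 7 bins of distance from the nearest TSS (horizontal axis, bp), with bars for the IDR set and points for the top lists of the 3 replicates. The bars fall from 98.0 per Mb in the nearest bin to 36.6 per Mb in the farthest, and the points follow them.

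Most members sat in a first intron, the intron that follows the first exon of at least 1 transcript of the host gene. That held for 1147 members, 78.3% (76.1 to 80.4), where first introns make up 57.4% of the eligible bases (ratio 1.36, exact binomial p = 1.06e-63), and the replicates gave 78.0% ± 1.03 (SD, n = 3). First introns lie nearer to TSSs than later ones, so the shares were also taken within distance ranges, an alternative chosen after seeing the data. The ratio was 1.29 at 500 to 2000 bp (83.3% of members against 64.5% of bases) and 1.37 at 2000 to 5000 bp (70.2% against 51.3%). The shortest annotated intron around a summit had a median length of 5988 bp, and 102 member intervals (6.97%) also reached into an exon.

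Members lay nearest to promoters of their own host genes more often than intronic bases do. For 895 of them, 61.1% (58.6 to 63.6), the nearest TSS belonged to the host and lay upstream, against 51.3% of bases (exact binomial p = 3.47e-14). For 306, 20.9% (18.8 to 23.1), the nearest TSS was that of an alternative promoter of the host farther along the gene, so that the summit lay upstream of it, against 14.3% of bases (ratio 1.46, exact binomial p = 1.21e-11). Only 263, 18.0% (16.03 to 20.03), lay nearest to a TSS of no host gene, against 34.4% of bases (ratio 0.522, exact binomial p = 3.22e-44). In the replicates these shares were 60.5% ± 1.66, 21.5% ± 0.96 and 18.1% ± 0.71 (SD, n = 3). All 3 replicates lay on the same side of the share of bases for each of the classes. Members of 1 gene are not independent, and 163 members had the next member within 1000 bp, so the p-values are too small. With 1 summit kept per 1000 bp, an alternative chosen after seeing the data for these classes, 1247 members were left, the ratios were 1.17, 1.47 and 0.550, and all 3 calls held.

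**Figure D2:**
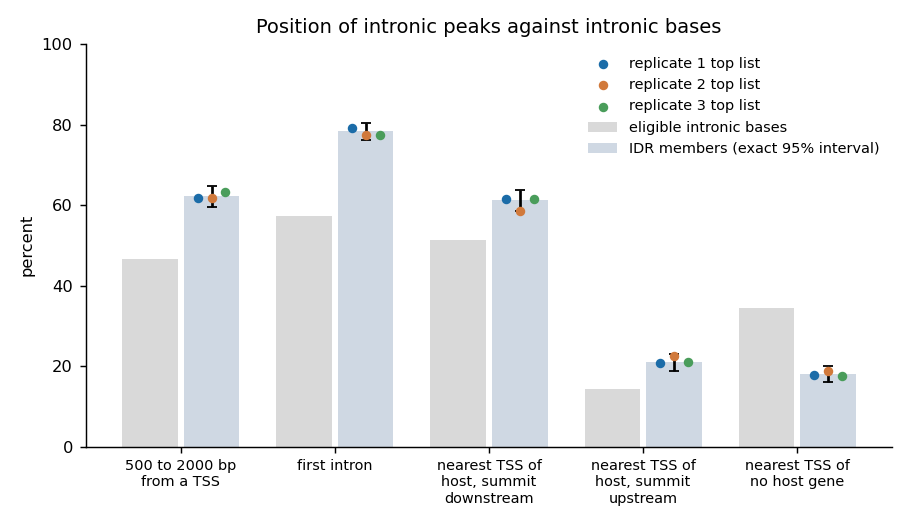
Percent of eligible intronic bases (grey bars) and of members (blue bars, with exact 95% intervals) in 5 positions, with points for the top lists of the 3 replicates. The members stand above the bases in the first 4 positions and below them, at 18.0% against 34.4%, where the nearest TSS is of no host gene.

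A minority of members had a peak at their nearest promoter, a share above that of all TSS positions. The nearest TSS had another IDR summit within 500 bp for 492 members, 33.6% (31.2 to 36.1), where 19.2% of all 23581 TSS positions have one. The replicates gave 36.2%, 36.2% and 33.9%, a mean of 35.4% ± 1.35 (SD, n = 3). Intergenic peaks reached 22.6% (odds ratio 1.74, Fisher's exact test, two-sided, adjusted p = 2.72e-06), and in the replicates 22.9% ± 1.44, below the range of the members. Deep intronic peaks reached 30.4% (odds ratio 1.16, adjusted exact p = 0.18) and 33.7% ± 2.25 in the replicates, which overlapped the members' range. Members downstream of a host TSS had a bound promoter in 40.2% of cases. Those upstream of an alternative host promoter had one in 24.5%, and those nearest to another gene's TSS in 21.7%. By distance from the TSS the share was 26.3% at 500 to 1000 bp, 35.4% at 1000 to 2000 bp and 37.5% at 2000 to 5000 bp. These differences were not tested.

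Members and promoter peaks were supported in all 3 top lists at shares that did not differ by the test. In the relaxed lists members were supported more often than promoter peaks, but not more often than deep intronic or intergenic peaks by the test. A member was counted as supported where a replicate had a summit whose window, 100 bp to either side, met the member's. The top lists of replicates 1, 2 and 3 supported 87.1%, 80.5% and 86.6% of members, with replicate 2 lowest. All 3 supported 948 members, 64.8% (62.2 to 67.2), and 9 were supported by none. The same share was 64.2% at promoters (odds ratio 1.02, Fisher's exact test, adjusted p = 0.739), 60.9% for deep intronic peaks (odds ratio 1.18, adjusted exact p = 0.175) and 59.7% for intergenic peaks (odds ratio 1.24, adjusted exact p = 0.115). All 3 relaxed lists supported 98.2% of members, and with them the odds ratio against promoter peaks was 3.16 (adjusted exact p = 3.12e-09). It was 1.21 against deep intronic peaks (adjusted exact p = 0.587) and 1.38 against intergenic peaks (adjusted exact p = 0.564), neither passing. With 1 summit per 1000 bp it was 1.31 against deep intronic peaks (adjusted exact p = 0.024) and 1.39 against intergenic peaks (adjusted exact p = 0.00917), both passing. Since the authors' IDR step used these replicates, support is no independent evidence. Among the 1437 members found in all 3 relaxed lists, ranks of the authors' signal value gave a Spearman's rho of 0.712 between replicates 1 and 2. It was 0.660 between 1 and 3, and 0.744 between 2 and 3, across peaks that share libraries.

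In signal, members stood slightly below promoter peaks. Their median percentile within the IDR set was 51.1, against 52.6 for promoter peaks, 45.5 for intergenic peaks and 40.9 for deep intronic peaks. In the top lists of replicates 1, 2 and 3 the members' median minus that of promoter peaks was -1.24, -3.93 and -3.36 points, the same sign in each replicate. With the IDR peaks ranked by the signal of replicate 2's relaxed list it was -7.26. With 3 replicates an exact sign-flip test cannot go below p = 0.25, so no test was made. Among the 100 IDR peaks of highest signal 18 were members, and 5 were among the 20 highest.

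The members of highest signal also ranked high in the replicates, with a spread that differed from member to member. Those named here were chosen by signal in the IDR set and by support in all 3 replicates. The authors' IDR step used these same replicates, so high ranks in them follow in part from the choice and are no independent evidence. The top peak of the whole IDR set lay in an intron of CG11050 (chr2L:6612378-6612982), 1015 bp downstream of the gene's TSS. It ranked 2, 3 and 1 in replicates 1, 2 and 3. The shortest annotated intron around its summit is 140 bp long, so its interval also reached into exons. Rank 3, in the first intron of ush, whose protein is a cofactor of GATA factors, ranked 3, 2 and 2 (chr2L:480807-481360). Its nearest TSS was that of cbt, a zinc-finger transcription factor gene, and this promoter carried a peak too. Both members stayed among the 3 highest peaks of each replicate.

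Next came the member in Trl, the gene of the GAGA factor, which ranked 6, 9 and 5 (chr3L:14759292-14759778). The member in CG32772 ranked 10, 8 and 14 (chrX:4910054-4910621), and that in Lk6, a protein kinase gene, ranked 9, 19 and 18 (chr3R:11760821-11761449). The member in Tlk, the gene of the Tousled-like kinase, ranked 23, 24 and 22 (chrX:3741970-3742407). Each of these 4 members kept its 3 ranks within 10 places. Others spread more, such as norpA (71, 50 and 114) and CG9663 (25, 27 and 54), and Kdm2 and bmm spread most of the 20.

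The member in Kdm2, a histone demethylase gene, ranked 212, 76 and 42, and that in bmm, a triglyceride lipase gene, ranked 225, 125 and 74. Replicate 1 was the lowest for both. The rest of the 20 lay in the gene pair HmgD and HmgZ, which encode high mobility group chromatin proteins (rank 26), CG9663 (29), the overlapping genes Hyls1 and chif (34), CG12769 (45), CG9837 (63), CHES-1-like, a forkhead gene (65), NFAT, a transcription factor gene (68), norpA, a phospholipase C gene of phototransduction (77), Reph (78), CG9135 (84), CG3726 (86) and for, a gene of a cGMP-dependent protein kinase (102). Of the 20, 17 lay in a first intron.

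**Figure D3:**
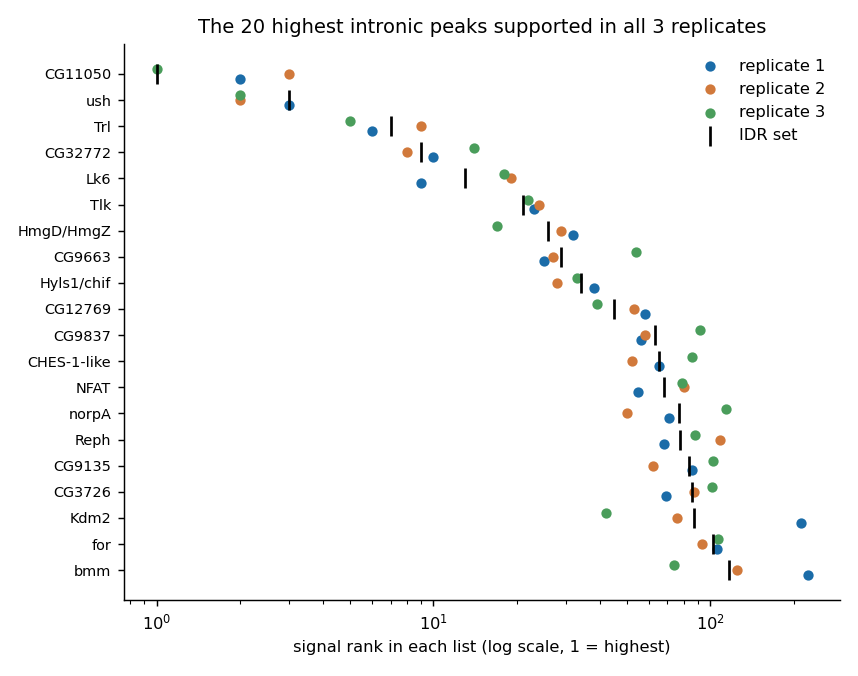
Signal ranks (horizontal axis, log scale, 1 is highest) of the 20 members of highest signal supported in all 3 replicates, one row per host gene, with points for the replicates and a bar for the IDR set. CG11050 and ush stay within rank 3 in each list, and replicate 1 stands apart for Kdm2 (212) and bmm (225).

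Binding was spread over many genes, with a minority holding several members. Of 9101 protein-coding genes with eligible intronic bases 966 (10.6%) held at least 1 member, 630 of them exactly 1, 210 of them 2 and 126 of them 3 or more. The last group held 475 members. A further 13 members lay only in non-coding genes, and 119 lay in introns of 2 or more genes. Arm 4 held 3 members, 9.50 per Mb of eligible bases, against 53.8 to 63.6 on the other arms. The replicates gave 15.8, 12.7 and 12.7 per Mb on arm 4, below every value of the other arms in each replicate, and no test was made.

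CHES-1-like held the most, 11 members in 14.7 kb of eligible bases (75.02 per 100 kb, against 6.04 over all protein-coding genes). Its ranks ran from 65 to 5698, 10 of the 11 were supported in all 3 replicates, and the gene held 11, 12 and 11 members in the top lists of the replicates, in order. All were in first introns, and 10 had a TSS of CHES-1-like as the nearest. A pair of them lay close enough to match the same peak in replicates 2 and 3.

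The gene shn, which encodes a zinc-finger protein of Dpp signalling, held 10 members, and 10, 10 and 14 in the replicates' top lists. CG1677 also held 10 (12, 11 and 10 in the replicates), and none of these had the TSS of CG1677 as the nearest. In ush there were 9 members, all in first introns and all supported in every replicate (8, 9 and 10). Tlk held 9 (10, 8 and 11). Pdp1, a transcription factor gene with a part in the circadian clock, held 8 (8, 6 and 7), tou, a chromatin factor gene, held 7 (5, 6 and 7), and CG32264 held 7 (8, 5 and 5). The counts moved by at most 4 between replicates in any of these 8 genes.

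Gene lists differed in how densely their introns were bound, and several densities rested on 1 gene. No test was made of the lists, which were chosen with earlier results of these data known. Some genes stand in more than 1 list, such as Trl, pnt, sty, Hr4 and Eip75B, and their members count in each. Against 6.04 members per 100 kb over all protein-coding genes (5.97 ± 0.15 in the replicates, SD, n = 3), genes of JNK signalling and AP-1 had 25.2 (26.0 ± 1.32), from 11 members in 43.6 kb. Those with a member were 5 of 8 genes (62.5%, beside the 10.6% of all genes). They were puc, a JNK phosphatase gene, with 5 members, kay, the Fos gene, msn and hep, kinase genes upstream of JNK, and egr, a TNF ligand gene. Without puc the list had 18.6 per 100 kb. Polycomb and trithorax group genes had 13.9 (13.0 ± 0.73), and 12.04 without kis. The members lay in Trl, trx, brm, kis, osa, ph-p and skd, 7 of 30 genes (23.3%, beside the 10.6% of all genes). The trx member (rank 161) ranked 161, 196 and 139 in the replicates.

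Forkhead genes had 32.9 per 100 kb (38.0 ± 2.53), but 8.06 without CHES-1-like, the other members being in foxo and jumu. GATA factor and cofactor genes had 16.1 (16.1 ± 1.61), but 3.09 without ush. Genes of the Dpp pathway had 11.6 (12.3 ± 0.69), and 6.28 without shn, with members also in tkv, a receptor gene, Mad, the gene of a signal transducer, Dad, sog, dally and dlp. Basic helix-loop-helix genes had 11.0 (10.2 ± 0.84), with 5 members in Mnt, a gene of the Myc network. Most members in the forkhead and GATA lists thus lay in 1 gene each.

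Genes of BTB zinc-finger factors held a member in 9 of 13 cases (69.2%, beside the 10.6% of all genes), among them Trl, lola, ttk, br and psq, at 9.04 per 100 kb. These 13 genes have 155 kb of eligible bases, and the density is the measure that allows for intron length. Ecdysone response genes held one in 11 of 19 cases (57.9%, beside the same 10.6%) at 7.92 per 100 kb, with Hr4 (rank 471) and Eip75B (rank 896) highest. Receptor tyrosine kinase pathway genes had 8.86, with the highest signal in Raf, a kinase gene of that pathway (rank 162, and 113, 119 and 262 in the replicates). Glial genes had 10.5, with 4 of the 7 members in pnt, an ETS factor gene. Hedgehog pathway genes had 8.14, from ptc, rdx and hh, and nuclear receptor genes had 6.93.

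Neuronal and axon guidance genes had 3.38 per 100 kb (3.15 ± 0.26), a density below that of all genes, but held a member in 14 of 45 cases (31.1%, beside the 10.6% of all genes). The highest lay in an intron of elav, the gene of a neuronal RNA-binding protein, where arg and lncRNA:enrr overlap it (rank 716). Homeodomain genes had 1.52 (1.45 ± 0.45), with members in 5 of 67 genes (7.46%, beside the same 10.6%), zfh1, Abd-B, Antp, cad and NK7.1. Wingless (6.03), muscle and mesoderm (5.26), tracheal and epidermal (5.13) and Notch pathway genes (4.67, and 1.23 without mam) lay between, with arr, rhea, sty and mam as the hosts of highest signal. Of the PR domain genes, 1 of 3 held a member, in ham at rank 5470, which was outside the top list of replicate 3. The tagged gene itself had no IDR peak within 5000 bp and only 0.128 kb of eligible bases.

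Members were found in 0 of 133 chemoreceptor genes, where a count of 0 allows up to 2.26% (3 counts of the total), in 0 of 35 cuticle protein genes (up to 8.57%) and in 0 of 27 cytoplasmic ribosomal protein genes (up to 11.1%). The eligible bases were 58.6 kb in chemoreceptor, 59.6 kb in cuticle protein and 5.34 kb in cytoplasmic ribosomal protein genes. At 6.04 members per 100 kb, the density over all protein-coding genes, few members would fall in lists this small. The limits cover counting error only.

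**Figure D4:**
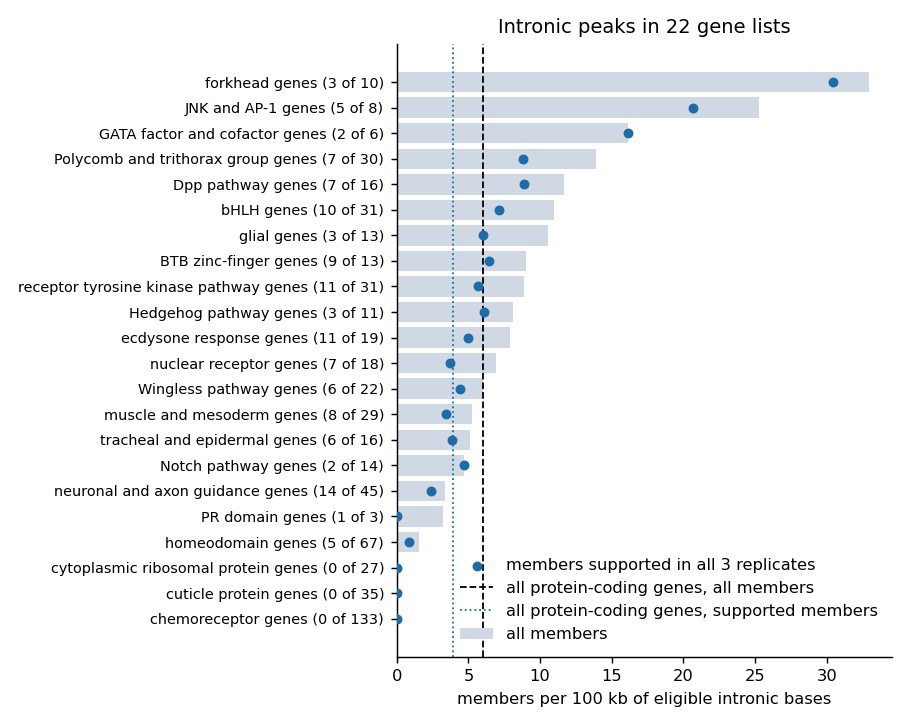
Members per 100 kb of eligible intronic bases (horizontal axis) in 22 gene lists, with bars for all members, points for members supported in all 3 replicates and lines for the same values over all protein-coding genes; brackets give the genes with a member and the eligible genes. Forkhead (32.9), JNK and AP-1 (25.2) and GATA genes (16.1) stand highest, and homeodomain genes (1.52) are low.

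The sequence at members was AT-rich, and AT-rich motifs were more frequent there than beside them. Mean GC content within 100 bp of the summit was 36.3%, against 41.2% in windows of equal width centred 500 bp farther from the TSS and 41.5% toward it. Low GC was not particular to members. Summits of promoter peaks had 37.7%, those of deep intronic peaks 35.8% and those of intergenic peaks 35.6%. Of 40 motifs searched on both strands, 5 (12.5%) were more frequent at the summit and 6 (15%) less frequent (exact McNemar test, two-sided, adjusted p under 0.05). The TATA box, TATAAA, lay at 36.7% of members and 23.2% of flanks (odds ratio 1.88, adjusted exact p = 2.67e-13), and in the replicates at 35.97% ± 1.98 (SD, n = 3). The forkhead site TGTTTAC lay at 11.0% and 5.46% (odds ratio 2.25, adjusted exact p = 4.96e-07), with 11.6%, 9.89% and 10.9% in replicates 1, 2 and 3. It is the capital run in the Trl, Lk6, CG9663, SCaMC and Csk sequences. The Mef2 site lay at 11.5% and 6.83% (odds ratio 1.80). The homeodomain site TAATTA (17.4% and 12.8%, odds ratio 1.42) and the run AAAAAAA (24.1% and 18.8%, odds ratio 1.38) also passed. The homeodomain call was lost with windows of 150 bp (odds ratio 1.13) and with flanks 1000 bp away (1.19). The call of the A run was lost with windows of 50 bp (1.32), flanks toward the TSS (1.135), flanks 1000 bp away (1.25), flanks free of exons and promoters (1.26) and the 751 members in the upper part of the IDR set by signal (1.32).

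The 6 motifs less frequent at summits hold more G and C. They were the nuclear receptor site AGGTCA (2.94% at summits, 6.49% in flanks, odds ratio 0.416), the Sp and Klf site GGGCGG (3.76% and 7.45%), the E-box CAGATG (5.46% and 9.43%), the CTCF core AGGNGGC (4.37% and 8.13%), the Pleiohomeotic site GCCATT (10.04% and 14.8%) and the Su(H) site GTGGGAA (1.503% and 3.48%). The Su(H) call was lost with windows of 50 bp (odds ratio 0.524) and 150 bp (0.631), flanks 1000 bp away (0.710), peaks supported in all 3 replicates (0.533), and without replicate 1 (0.514) or replicate 3 (0.531). That of CAGATG was lost with flanks toward the TSS (0.8065), and that of Pleiohomeotic with windows of 50 bp (0.723). Neither the GAGA site GAGAG (23.2% and 25.1%) nor the Zelda site CAGGTA (4.44% and 3.69%) passed.

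Matches of the forkhead site and the TATA box were most frequent in the bins next to the summit. The middle of a forkhead site lay within 50 bp downstream of the summit, in the direction of the plus strand, in 3.83% of members. It lay within 50 bp upstream in 3.28%. In the bins from 450 to 500 bp the shares were 0.751% on the upstream side and 1.84% on the downstream side. The TATA box reached 13.3% and 12.7% next to the summit. The nuclear receptor site was lowest there, at 0.342% and 0.820%. When members were divided into 3 equal groups by signal, the forkhead site lay at 11.3%, 10.7% and 11.1% from the highest group to the lowest, and the homeodomain site lay at 20.1%, 18.6% and 13.5%. These shares were not tested.

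**Figure D5:**
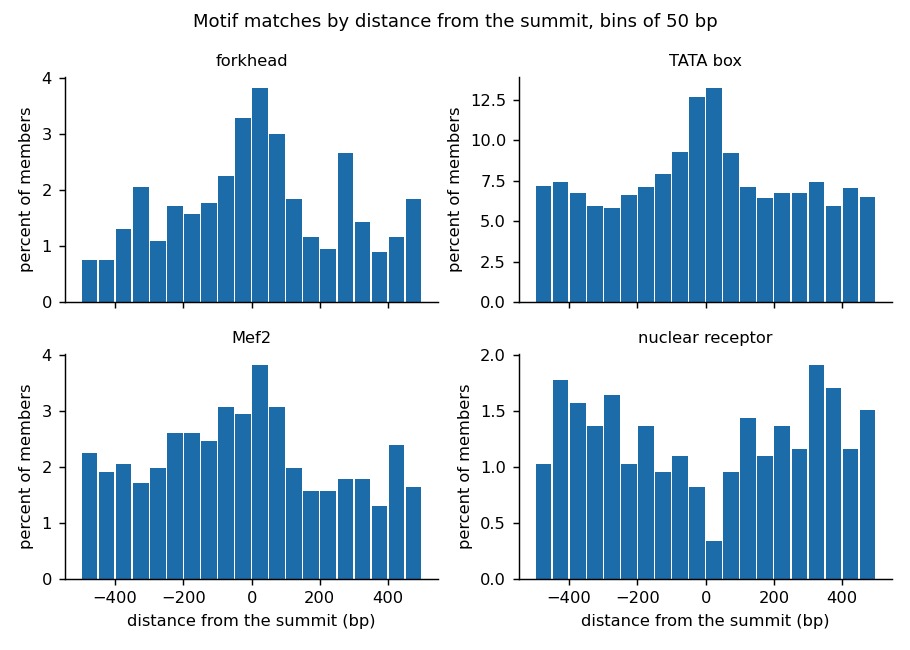
Percent of members with a motif match (vertical axes) in bins of 50 bp by distance from the summit (horizontal axes, plus strand direction), for 4 motifs. The forkhead site and the TATA box peak next to the summit, and the nuclear receptor site is lowest there. The Mef2 site is raised more broadly, within 100 bp of the summit.

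Base composition moved with these motifs. Among the 467 members whose flank had a GC content within 5 percentage points of the summit window, an alternative chosen after seeing the data, none of the 40 motifs passed the exact McNemar test after adjustment. The smallest adjusted exact p was 0.132, and 2 higher and 5 lower motifs had an unadjusted p under 0.05. The odds ratio of the forkhead site there was 1.96 (13.1% and 7.49%, adjusted exact p = 0.132) and that of the TATA box 1.46 (33.8% and 26.3%, adjusted exact p = 0.132). This set holds fewer members, and a loss of call there does not show that the sites do not differ.

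A search of all words of 6 bases, with reverse complements joined, found 246 (11.8%) more frequent and 370 (17.8%) less frequent at summits. Of the 36 words with no G or C, 36 were more frequent, and of those with 6 such bases 16 of 36 were less frequent and none more. Of the words with 3 such bases 17 were more frequent and 118 less, and ACACTG was among the 17. It lay at 13.7% of members and 5.94% of flanks (odds ratio 2.55, exact McNemar test, adjusted p = 2.24e-10), and AGTGTA, which has 2 such bases, at 15.9% and 7.104% (odds ratio 2.47, adjusted exact p = 1.72e-11). These overlap in TACACTG, a word looked at after the values were seen, which lay at 6.49% and 1.64%. TACACTG lay at 3.74% of promoter peaks, 7.04% of deep intronic peaks and 7.22% of intergenic peaks. ACACTG itself was more frequent at promoter peaks (16.2%) than at members, and lay at 14.6% of deep intronic and 13.5% of intergenic peaks. CACACTG, also looked at afterwards, lay at 3.48% of members and 5.64% of promoter peaks. The differences between these classes were not tested.

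Among the members with similar GC in both windows, ACACTG (odds ratio 2.23, adjusted exact p = 0.035), AGTGTA (2.53, adjusted exact p = 0.00631) and AATATT (2.46, adjusted exact p = 0.000226) still passed, among 10 words that were higher and 5 that were lower. Unlike the forkhead site, ACACTG was more frequent 50 to 100 bp from the summit (4.37% and 4.51% on the 2 sides) than within 50 bp (3.07% and 2.66%). The other words of the highest odds ratios were AATATT (31.3% and 15.2%) and TTATAA (19.3% and 9.49%), and GGTACC (1.16% and 0.410%), which did not pass (adjusted exact p = 0.0956). The lowest odds ratios were those of GAGGAC (1.09% and 4.17%, odds ratio 0.262), CCCGGG (0.410% and 1.503%), AGGACG (1.02% and 2.87%), CGGGTC (1.02% and 3.14%) and CCGGGA (0.888% and 2.66%).

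Some motifs known from promoters were less frequent at members than at promoter peaks, and others were not. The 2 classes were set apart by distance from a TSS, so this comparison is not independent of the rule. Of the 40 motifs, 11 (27.5%) differed between members and promoter peaks (Fisher's exact test, two-sided, adjusted over all motifs and the 3 comparisons). The DNA replication element TATCGATA lay at 0.205% of members and 5.71% of promoter peaks (odds ratio 0.0339, adjusted exact p = 3.15e-24), and Ohler 7 at 1.84% and 7.41% (adjusted exact p = 1.02e-14). The M1BP site GGTCACACT lay at 0 of 1464 members, where a count of 0 allows 0.205% at most, and at 2.34% of promoter peaks. The other core promoter motifs searched did not pass: the TATA box lay at 36.7% and 34.6% (adjusted exact p = 0.56), the Initiator at 13.7% of both (adjusted exact p = 1) and Ohler 6 at 0.342% and 0.834% (adjusted exact p = 0.299). The BEAF-32 core CGATA (23.7% and 33.9%) and the E-box CAGCTG (8.54% and 12.7%) were also less frequent at members. Members more often held the Caudal site TTTATG (27.8% and 19.8%, odds ratio 1.56, adjusted exact p = 5.5e-08), and, with smaller margins, the E-box CATATG and the GATA, POU, TCF and forkhead sites. Those 5 calls were lost among peaks supported in all 3 replicates, with odds ratios of 1.34, 1.28, 1.53, 1.38 and 1.27. By the exact McNemar test, members did not differ from their flanks in TATCGATA (0.205% and 0.410%) or Ohler 7 (1.84% and 1.64%). The M1BP site lay at 0.0683% of flanks and did not pass either. Deep intronic peaks held TATCGATA at 0.185% and Ohler 7 at 0.556%, neither passing against members.

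Against deep intronic peaks 1 of 40 motifs (2.5%) differed, the run AAAAAAA (24.1% of members and 30.4%, odds ratio 0.728, adjusted exact p = 0.046). Against intergenic peaks 1 (2.5%) differed, the forkhead site (11.0% and 6.68%, odds ratio 1.73, adjusted exact p = 0.0392). It lay at 11.1% of deep intronic and 8.38% of promoter peaks. Both calls were lost without each replicate in turn and among peaks supported in all 3, where the forkhead odds ratio against intergenic peaks was 1.76 (adjusted exact p = 0.381).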

How the data were processed

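Members, gene lists, motifs and tests were chosen with earlier results of these data known. The authors deposited a relaxed list of 30000 peaks for each of the 3 replicates and for the pool, and an IDR set of 5724, on build dm6, per the deposited derivation records. Aligner, peak caller, IDR threshold and read numbers: not given in the sources used here. Depth is therefore unknown. The deposited signal, a measure of the authors' own, served to rank peaks inside a single list. Some intervals carry more than 1 summit, and 18 members share one.

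From these lists the classes, shares, supports and motifs were computed. Annotation was Ensembl release 115 of BDGP6.54, with the coordinates of dm6, without transposable elements, and sequence was RefSeq release 6. Exact binomial, Fisher's exact and exact McNemar tests were two-sided, with Benjamini-Hochberg adjustment per family and a threshold of 0.05. Intervals are exact (Clopper-Pearson) at 95% and cover counting error only. P-values over peaks do not measure the spread between embryos, for which the replicates' values are given. The scripts were tested on simulated data. Scipy 1.17.1 ran the tests under Python 3.11.15, with pandas 2.3.3, numpy 2.4.6 and, for figures, matplotlib 3.10.9.

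Named are the 20 members of highest signal supported in all 3 replicates, up to 2 per gene list, the 8 genes with most members, the summits beside the edges of the rule, the tagged gene, and the 5 highest and 5 lowest 6-base words by odds ratio with at least 20 discordant members. Further hosts named within the lists, the words TACACTG and CACACTG, and lists without 1 gene were added after the values were seen. Of the listed symbols, 8 matched no gene in the annotation. To leave a replicate out, IDR peaks supported by both others were kept.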

Additional observations from a re-analysis of the deposited data

How the results depend on the processing

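The excess of members over bases (ratios 1.215 to 1.49), of members 500 to 2000 bp from a TSS (1.30 to 1.59), of first introns (1.29 to 1.42) and of members downstream of a host TSS (1.149 to 1.22) or upstream of one (1.38 to 1.57), and the deficit of members nearest to a TSS of no host gene (0.478 to 0.617), kept direction and call under every alternative run. So did the odds ratio of bound promoters against intergenic peaks. Against deep intronic peaks it was 1.16 (not passing), 0.962 with promoters of 200 bp, 1.30 with 1000 bp (adjusted exact p = 0.0126) and 0.984 with 1 summit per 1000 bp, and 1.00 to 1.24 without 1 replicate. Support in all 3 replicates against promoter peaks had an odds ratio of 0.962 with windows of 200 bp and 3.16 with relaxed lists (adjusted exact p = 3.12e-09), and 0.957 to 1.13 in pairs of replicates. With 1 summit per 1000 bp it was 1.31 against deep and 1.39 against intergenic peaks, both passing, and in pairs of replicates 1.12 to 1.30 and 1.015 to 1.54, passing without replicate 2. The difference in signal percentile from promoter peaks was -7.26 with the ranks of replicate 2.

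With the flank toward the TSS 8 motifs were higher. With flanks of similar GC, 0 of 40 were higher and 0 lower by the exact McNemar test (2 and 5 at an unadjusted p under 0.05), 10 words of 6 bases were higher and 5 lower, and the odds ratios of the CTCF core (1.13) and the Sp and Klf site (1.19) turned. Motifs that differed from promoter peaks numbered 6 among peaks supported in all 3 replicates, 7 with 1 summit per 1000 bp and 6 without any 1 replicate. From deep peaks 0 differed with windows of 50 bp, among supported peaks and without any 1 replicate. From intergenic peaks 0 differed in those same settings and with 1 summit per 1000 bp, and 2 with windows of 150 bp. Of the values of single motifs, words and gene lists under these settings, 203 stayed alike, 72 lost the call (71 with the same direction, and CGGGTC at an odds ratio of 1) and 10 list densities moved by over 1.5 times, 9 of them among supported peaks, where that of all genes fell from 6.04 to 3.92. Sets without a replicate are smaller (4081 to 4197 peaks), and the cause of these changes was not tested. No paired comparison between groups was possible because there is 1 group. Read depth is unknown, so its limits cannot be given.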
